A study of Homo sapiens with 12 samples.

Results

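The genes described here encode the proteins of the cytosolic ribosome. They were taken by symbol from the deposited expression table, as the genes named RPL or RPS with a number, together with RPLP0, RPLP1, RPLP2 and RPSA. This gave 84 genes of 57905, of which 52 belong to the large subunit and 32 to the small subunit. Among them are 7 close copies of another ribosomal protein gene: RPL3L, RPL7L1, RPL10L, RPL22L1, RPL26L1, RPL39L and RPS27L. Values are FPKM, sequenced fragments normalised to the length of the gene and the size of the library. Such values allow only approximate comparison between genes, and comparisons between libraries depend further on scaling.

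The cells were 3 established human lung cancer lines with a mutated EGFR gene, PC9, HCC827 and HCC4006. Cells called dormant had been kept for 2 weeks in 15 cm plates with 100 nM osimertinib, which blocks mutant EGFR, and 30 nM trametinib, which blocks the kinase MEK downstream of it. DMSO cells had received the solvent for 24 hours in 10 cm plates. Each line and treatment had 2 libraries, 12 in all. Drug, duration and plate size cannot be told apart in this design, and the labels speak of plating in duplicate without saying whether the cultures were separate. P-values therefore measure only the spread between these libraries, which may be technical. The 5 epithelial markers looked at were above 0 in every library: EPCAM at 69.2 to 428.8 FPKM, and CDH1, KRT8, KRT18 and KRT19 from lows of 5.22, 5.87, 13.0 and 9.91 FPKM to highs of 179.3, 7352, 5982 and 5696 FPKM. Of the 8 markers of other cell types, CD3E was at 0 in all libraries, and PTPRC, CDH5, DCN, PDGFRB and VWF reached at most 0.14, 0.15, 0.11, 1.13 and 3.05 FPKM. COL1A1 reached 12.2 FPKM with a median of 0.75, and CD68 reached 28.985 FPKM with a median of 12.5.

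A ribosome is built from a small subunit, which reads the mRNA, and a large subunit, which joins the amino acids. Its proteins are made in nearly equal numbers and their mRNAs are among the most abundant in a growing cell. Most of these mRNAs begin with a C followed by an unbroken run of pyrimidines, the 5′ terminal oligopyrimidine (TOP) tract. Through this tract the protein LARP1 and the kinase complex mTORC1 regulate the translation of these mRNAs and LARP1 also their stability. In bulk RNA, fewer mRNA copies per cell and a smaller share of the RNA pool cannot be told apart.

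The TOP tract is the sequence feature looked for here, and the gene start, with or without it, is shown for members to which the results return. Each line gives 15 bases before and 15 bases from the gene start listed by RefSeq on GRCh38.p14, read along the gene's own strand. Capitals mark a C at the start and the pyrimidines that follow it without a break, where at least 4 follow.
RPL35, large subunit, chr9:124861943-124861972, minus strand: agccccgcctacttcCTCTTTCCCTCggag
RPSA, small subunit, chr3:39406705-39406734, plus strand: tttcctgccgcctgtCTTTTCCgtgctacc
RPS6, small subunit, chr9:19380222-19380251, minus strand: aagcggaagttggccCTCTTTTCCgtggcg
RPL39, large subunit, chrX:119791616-119791645, minus strand: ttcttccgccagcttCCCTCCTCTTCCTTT
RPS27, small subunit, chr1:153990747-153990776, plus strand: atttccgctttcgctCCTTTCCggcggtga
RPS27L, copy of RPS27, chr15:63157463-63157492, minus strand: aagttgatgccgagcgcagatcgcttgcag
RPL22, large subunit, chr1:6199581-6199610, minus strand: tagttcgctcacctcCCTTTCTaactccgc
RPL22L1, copy of RPL22, chr3:170870181-170870210, minus strand: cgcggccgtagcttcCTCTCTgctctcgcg
RPS7, small subunit, chr2:3575245-3575274, plus strand: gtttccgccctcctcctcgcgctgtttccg
RPL27, large subunit, chr17:42998404-42998433, plus strand: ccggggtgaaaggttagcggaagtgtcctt

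A C at the listed start followed by at least 4 bases that are each C or T was found in 47 of the 67 members with an entry, or 70.1%. Over all 27305 genes with an entry it was found in 1404, or 5.14%. The search read only the sense strand. Large subunit members held it in 29 of 42 entries and small subunit members in 18 of 25. RPS7, RPL27 and RPS27L lack it at the listed start, which says only that these letters are not at that base.

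Ribosomal protein mRNA made up between 12.2% and 35.2% of all FPKM in a library. In PC9 the share was 15.2% and 18.4% in the dormant libraries, against 18.0% and 17.7% in the DMSO libraries. In HCC827 it was 23.4% and 26.5% in the dormant libraries, against 27.9% and 35.2% in the DMSO libraries. In HCC4006 it was 16.0% and 12.2% in the dormant libraries, against 19.5% and 17.2% in the DMSO libraries. Dormant libraries therefore lay below DMSO libraries without overlap in HCC827 and HCC4006, while in PC9 the groups overlapped. The ratio of group means, dormant over DMSO, was -0.09 on the log2 scale in PC9, -0.34 in HCC827 and -0.38 in HCC4006. With each library left out it lay between -0.23 and 0.04 in PC9, between -0.50 and -0.16 in HCC827 and between -0.58 and -0.20 in HCC4006; the 0.04 is without the first PC9 dormant library, and the -0.16 and -0.20 are without the HCC827 DMSO and HCC4006 dormant libraries that stand apart, described further on. An exact permutation test within a line cannot reach 0.05 with 2 libraries against 2, so no p is given for these shares.

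**Figure D1:**
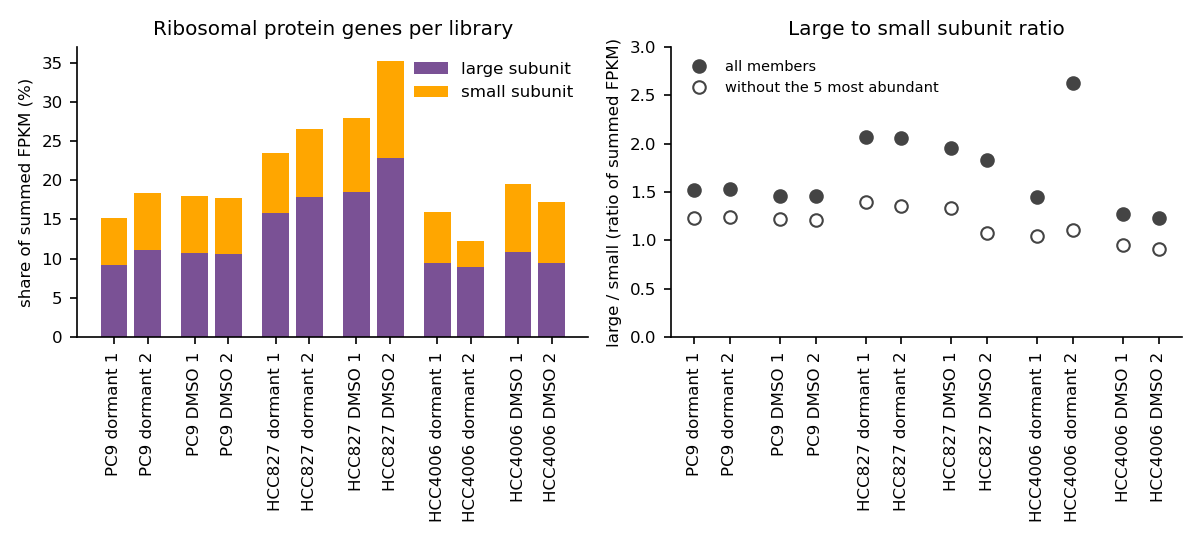
Left, the share of summed FPKM in % held by large and small subunit genes in each of the 12 libraries (bars, stacked). Right, the ratio of large to small subunit FPKM with all members (filled) and without the 5 most abundant (open); the second HCC4006 dormant library stands at 2.63 with all members and at 1.11 without those 5.

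The abundance of the members was far from equal. Of the 77 genes that are not close copies, 70 had a mean over 1000 FPKM across the 12 libraries. The median of these means was 2240 FPKM for the 46 large subunit genes and 2088 FPKM for the 31 small subunit genes. By the mean over all lines, the 5 most abundant members were of the large subunit: RPL7 at a mean of 9290 FPKM, RPL39 at 7936, RPL41 at 7557, RPL10 at 7275 and RPL26 at 5317. This order pools lines that differ: among the 5 highest DMSO means were RPS3 and RPS18 in PC9, RPS3A in HCC827, and RPS3, RPS6 and RPS29 in HCC4006, all of the small subunit. The lowest of the 77 was RPS26 at 8.33 FPKM, which sits near where the mRNA leaves the small subunit. RPL22, RPS2, RPS28 and RPL21 followed with means of 223.0, 313.1, 320.5 and 332.1 FPKM. Copies of RPS28 and RPL21 elsewhere in the genome are described further on. The pseudogene rows of RPS26 and RPS2 summed to at most 37.2 and 1.855 FPKM in a library. The method that assigned reads shared with such copies is not given in the sources used here.

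The summed FPKM of large subunit genes exceeded that of small subunit genes in every library. In PC9 the ratio of large to small was 1.52 and 1.53 in dormant libraries, against 1.46 and 1.46 in DMSO libraries. In HCC827 it was 2.07 and 2.06 in dormant libraries, against 1.95 and 1.83 in DMSO libraries. In HCC4006 it was 1.45 and 2.63 in dormant libraries, against 1.27 and 1.23 in DMSO libraries. Dormant libraries were thus above DMSO libraries without overlap in all 3 lines, by 0.06, 0.13 and 0.70 on the log2 scale of group means. The HCC4006 value became 0.20 without the 5 most abundant members, and the open circles in the plot of shares give the ratios without them. As a difference between the median log2(FPKM + 1) of large and of small subunit genes, only HCC827 separated, at 0.56 and 0.56 in dormant libraries, against 0.33 and -0.08 in DMSO libraries. It was -0.06 and -0.19 in dormant PC9, against -0.06 and -0.08 in DMSO PC9, and -0.13 and 0.08 in dormant HCC4006, against -0.46 and -0.11 in DMSO HCC4006.

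A pair of libraries, HCC4006 dormant replicate 2 and HCC827 DMSO replicate 2, did not resemble their replicates. Over the 82 members that passed the filter on low values, the correlation with the replicate was 0.56 and 0.90 for these 2 groups and 0.987 to 0.999 for the other 4 groups. Members over 1000 FPKM numbered 24 in the HCC4006 library, against 52 to 70 in the others. In that library GAPDH was at 6.72 FPKM, against 3755 FPKM in its replicate, and ACTB was at 1380 FPKM; ACTB was at 1842 FPKM in the HCC827 library, against at least 7915 FPKM in the remaining 10. The table holds FPKM and no counts. A relative depth, read from the step between low values of U6 pseudogenes, put the HCC4006 library at 37.7% of the first PC9 DMSO library, from 10 values, and the others at 68.1% to 106.5%, from 11 to 27 values.

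Within these 2 groups, the members did not shift together. In the HCC4006 dormant pair, replicate 2 against replicate 1, 46 of 82 members were lower by over 1 log2 unit and 7 were higher by over 1. RPL10, a large subunit protein at the interface with the small subunit, was at 9241 FPKM in the first library and 202.6 in the second. RPL21 was at 54.2 FPKM in the first and 3404 in the second, and RPL39, which lines the exit tunnel of the large subunit, at 3029 and 36692. In the HCC827 DMSO pair 8 members were lower and 25 higher by over 1 log2 unit in the second library. No member differed by over 1 log2 unit in the other 4 pairs.

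The difference between these replicates went with the GC content of the transcript. Over the 82 members, whose transcripts range from 40.4% to 62.8% GC, Pearson's r between GC content and the log2 ratio of replicate 2 to replicate 1 was -0.66 in dormant HCC4006 and -0.74 in HCC827 DMSO. Over the 11211 tested genes with a GC value the same r was -0.41 and -0.48. The other 4 pairs had r between -0.50 and 0.55 over the members, and between -0.44 and 0.57 over the tested genes. Genes of a library share its preparation, so these values describe the libraries and carry no p. In dormant HCC4006 the median log2 ratio was -0.25 in the third of members with the lowest GC and -3.10 in the third with the highest. Because 2 libraries did not resemble their replicates, tests on the members are given with all 12 libraries and with the 10 that remain. In the 10, dormant HCC4006 and HCC827 DMSO have a lone library, assumed to vary like the other groups. The 2 libraries were picked from these same values because they differed most from their replicates. Leaving them out removes the widest spread from the shared estimate, so p-values with 10 libraries are likely too small and counts of calls too high. PC9 keeps all its libraries, so its differences are the same in both fits and only their p-values change.

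**Figure D2:**
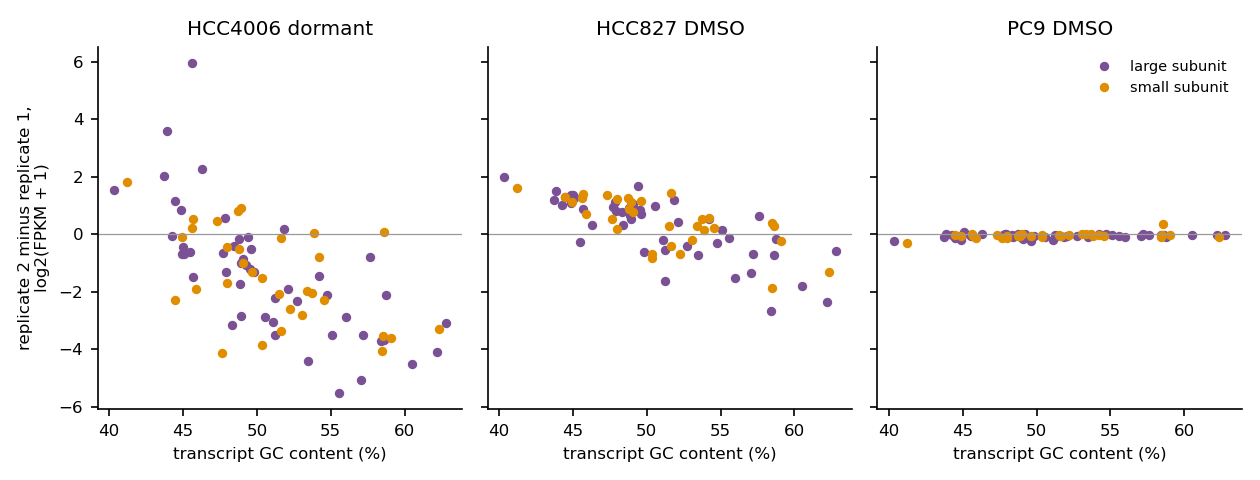
Log2(FPKM + 1) of replicate 2 minus replicate 1 for each of the 82 tested members against the GC content of its transcript in %, in 3 of the 6 groups, coloured by subunit. In dormant HCC4006 and HCC827 DMSO the difference falls with GC content (r of -0.66 and -0.74); in PC9 DMSO all members lie between -0.30 and 0.35.

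The comparison of dormant with DMSO cells asked whether ribosomal protein mRNA differs after 2 weeks of both inhibitors. Averaged over the 3 lines, 5 members fell in dormant cells and 0 rose, of 82 tested. The 5 were the large subunit genes RPL39L, RPL27 and RPL35 and the small subunit genes RPS7 and RPS2. Among all 14699 genes tested, 4.55% were called lower and 10.9% higher. The share of members called lower, 6.10%, is close to that background. The count hung on single libraries. Without the first HCC4006 dormant library 59 were lower and 3 higher, where 17.8% of all genes were lower and 32.5% higher. Without the second, 21 were lower and 1 higher, with 8.70% and 27.0% of all genes. Without the first HCC827 DMSO library 13 were lower and 0 higher, with 4.61% and 10.3% of all genes, and without the second 2 were lower and 1 higher, with 4.09% and 7.10%. Without any 1 of the other 8 libraries 1 was lower and 0 higher, with 2.33% to 3.26% of all genes lower and 4.65% to 7.69% higher. Calls are from limma with Benjamini-Hochberg adjustment over all genes, at an adjusted p under 0.05.

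Below the threshold the members lay to the lower side. Of the 82, 74 had a negative mean difference, against 5366 of the 14699 genes. Their median difference was -0.66 on the scale of log2(FPKM + 1), with quartiles at -0.85 and -0.38, and the median of all genes was 0.22. Relative to the median of all genes the members' median was -0.88, and between -0.99 and -0.41 under 3 other scalings of the libraries, so its sign did not change. By subunit, 45 of 50 large and 29 of 32 small subunit genes were negative, with medians of -0.59 and -0.71; a difference between the subunits was not tested. At an unadjusted p under 0.05, 25 members were lower and 1 was higher, where 9.64% of all genes were lower and 22.6% higher. Over the members, r between GC content and the mean difference was -0.36 with 12 libraries and -0.17 with 10; its part in these differences was not tested.

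With the 10 libraries, 36 of 82 members fell and 3 rose (limma, adjusted p under 0.05), where 12.8% of all genes were called lower and 30.0% higher. Of the 36, 19 were among the 50 large and 17 among the 32 small subunit genes. The 5 calls made with 12 libraries were all among the 36. These counts rest on the narrower spread described above and cannot be set against those from 12 libraries. The members' median was smaller in size, -0.30, against 0.20 for all genes. The 3 that rose were RPS27, its copy RPS27L, and RPL22L1.

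**Figure D3:**
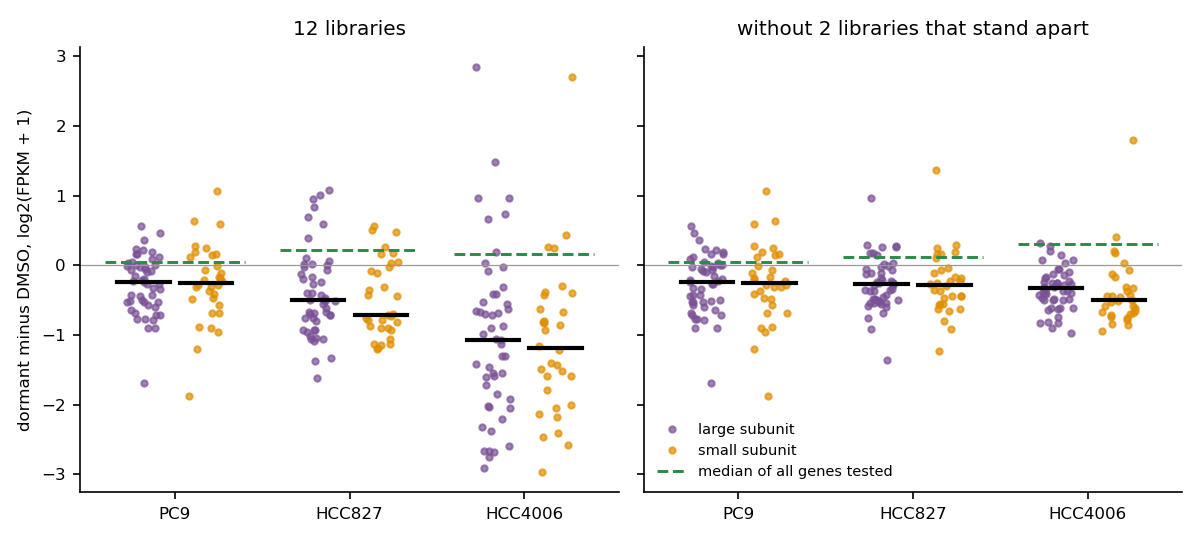
Dormant minus DMSO difference in log2(FPKM + 1) of each tested member in each line, large and small subunit side by side, with their medians (black bars) and the median of all genes tested (dashed). With 12 libraries (left) the medians of all members are -0.24, -0.51 and -1.10 in PC9, HCC827 and HCC4006; without the 2 libraries that stand apart (right) they are -0.24, -0.28 and -0.40.

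RPL39L is an autosomal copy of the X-linked RPL39, best known from the testis. It had 35.7 and 38.9 FPKM in dormant PC9, against 125.9 and 118.5 FPKM in DMSO PC9. In HCC827 it had 12.6 and 10.9 FPKM in dormant cells, against 31.4 and 45.7 FPKM in DMSO cells. In HCC4006 it had 43.7 and 21.7 FPKM in dormant cells, against 80.8 and 93.5 FPKM in DMSO cells. Dormant and DMSO libraries did not overlap in any line. The mean difference was -1.59 ± 0.27 (SE; limma adjusted p = 0.00486) with 12 libraries and -1.34 (adjusted p = 9.6e-05) with 10, and it was called in each of the 12 fits that left out a library. RPL39 itself differed by 0.33 ± 0.56 (adjusted p = 0.719), and by -0.02 with the 10 libraries.

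RPS7, a small subunit protein that also binds the ubiquitin ligase MDM2, had 595.4 and 687.2 FPKM in dormant PC9, against 1278 and 1221 FPKM in DMSO PC9. In HCC827 RPS7 had 1302 and 1500 FPKM in dormant cells, against 2153 and 4819 FPKM in DMSO cells. In HCC4006 RPS7 had 727.6 and 294.2 FPKM in dormant cells, against 1464 and 1155 FPKM in DMSO cells. The dormant libraries were lower in all 3 lines without overlap. Averaged over lines, RPS7 differed by -1.22 ± 0.33 (limma adjusted p = 0.0366) with 12 libraries and -0.81 ± 0.12 (adjusted p = 0.000872) with 10. The call was made in 3 of the 12 fits that left out a library.

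RPL35 sits at the exit of the large subunit's tunnel. It had 1441 and 1896 FPKM in dormant PC9, against 2740 and 2700 FPKM in DMSO PC9. In HCC827 RPL35 had 2076 and 2004 FPKM in dormant cells, against 3106 and 4834 FPKM in DMSO cells. In HCC4006 RPL35 had 761.8 and 437.9 FPKM in dormant cells, against 1691 and 1207 FPKM in DMSO cells. Again no dormant library reached a DMSO library of its line. RPL35 differed by -0.98 ± 0.28 on average (limma adjusted p = 0.0432), and -0.74 with the 10 libraries (adjusted p = 0.00251). The call held in 3 of the 12 fits that left out a library.

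RPL27, of the large subunit, had 824.9 and 1157 FPKM in dormant PC9, against 1352 and 1267 FPKM in DMSO PC9. In HCC827 RPL27 had 1762 and 2224 FPKM in dormant cells, against 3720 and 6697 FPKM in DMSO cells. In HCC4006 RPL27 had 1031 and 443.6 FPKM in dormant cells, against 1741 and 1883 FPKM in DMSO cells. The groups did not overlap in any line, though in PC9 the gap was narrow. For RPL27 the mean difference was -1.06 ± 0.32 (limma adjusted p = 0.0492), and -0.71 with the 10 libraries (adjusted p = 0.00291). It was called in 3 of the 12 fits that left out a library.

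RPS2 lies at the entry of the mRNA into the small subunit. It had 154.9 and 155.0 FPKM in dormant PC9, against 507.6 and 645.3 FPKM in DMSO PC9. In HCC827 RPS2 had 276.9 and 287.4 FPKM in dormant cells, against 341.3 and 420.8 FPKM in DMSO cells. In HCC4006 RPS2 had 180.1 and 190.6 FPKM in dormant cells, against 250.4 and 347.2 FPKM in DMSO cells. All 3 lines were lower without overlap, PC9 by the widest margin. The mean difference was -0.99 ± 0.26 (limma adjusted p = 0.0286) with 12 libraries and -0.95 (adjusted p = 0.00086) with 10. It was called in 4 of the 12 fits that left out a library.

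**Figure D4:**
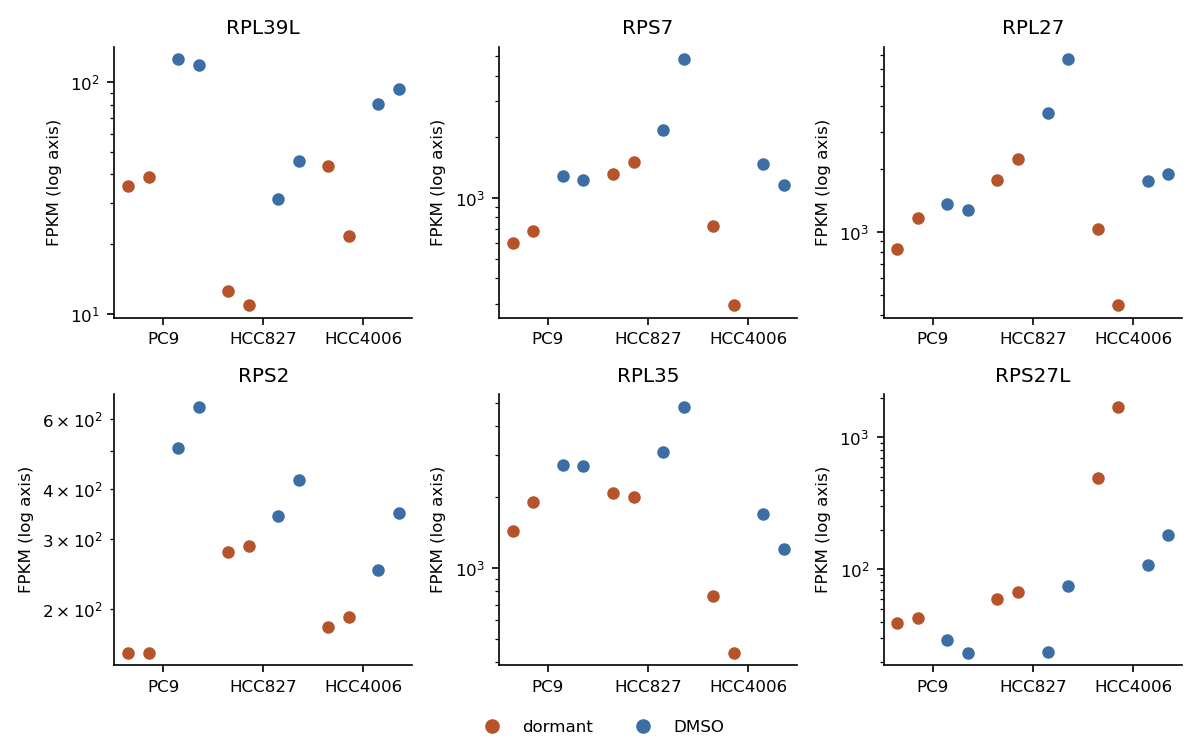
FPKM in each library on log axes, dormant left of DMSO within each line, for the 5 members called lower in dormant cells over the 3 lines and for RPS27L. The 2 dormant points lie below both DMSO points in every line for RPL39L, RPS7, RPL27, RPS2 and RPL35; RPS27L lies above in PC9 and HCC4006 and overlaps in HCC827.

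RPSA, which is also described as a laminin receptor, did not pass with 12 libraries. It had 1059 and 1276 FPKM in dormant PC9, against 2714 and 2651 FPKM in DMSO PC9. In HCC827 RPSA had 929.9 and 1057 FPKM in dormant cells, against 2329 and 1467 FPKM in DMSO cells. In HCC4006 RPSA had 514.7 and 84.8 FPKM in dormant cells, against 856.0 and 618.8 FPKM in DMSO cells. Dormant libraries lay below DMSO libraries in each line. For RPSA the mean difference was -1.30 ± 0.43 (limma adjusted p = 0.0673) with 12 libraries and -0.98 ± 0.13 (adjusted p = 0.000505) with 10.

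RPL5 and RPL11 enter the large subunit together with the 5S rRNA and bind MDM2 when they are free. RPL5 had 1377 and 1209 FPKM in dormant PC9, against 2412 and 2428 FPKM in DMSO PC9. In HCC827 RPL5 had 3151 and 3495 FPKM in dormant cells, against 4729 and 5963 FPKM in DMSO cells. In HCC4006 RPL5 had 933.7 and 4510 FPKM in dormant cells, against 1333 and 1140 FPKM in DMSO cells, so that the second dormant library was the highest of the 4. The mean difference of RPL5 was -0.28 ± 0.38 (limma adjusted p = 0.639) with 12 libraries and -0.61 ± 0.11 (adjusted p = 0.002) with 10. RPL11 had 1113 and 1378 FPKM in dormant PC9, against 1951 and 1905 FPKM in DMSO PC9, and its dormant libraries were the lower in each line. Over the lines RPL11 differed by -1.13 ± 0.45 (adjusted p = 0.119) with 12 libraries and -0.54 ± 0.12 (adjusted p = 0.00777) with 10.

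The stalk proteins RPLP0, RPLP1 and RPLP2, which recruit translation factors to the large subunit, were not called with either set of libraries. RPLP0 had 2962 and 4211 FPKM in dormant PC9, against 3197 and 2992 FPKM in DMSO PC9, which overlap. Its mean difference was -0.86 ± 0.63 (limma adjusted p = 0.373) with 12 libraries and -0.24 ± 0.13 (adjusted p = 0.170) with 10. RPS6, which S6 kinases phosphorylate downstream of mTORC1, had 1055 and 1318 FPKM in dormant PC9, against 1335 and 1227 FPKM in DMSO PC9. In HCC827 RPS6 had 4504 and 5530 FPKM in dormant cells, against 6379 and 10385 FPKM in DMSO cells. In HCC4006 RPS6 had 3770 and 1003 FPKM in dormant cells, against 5018 and 5244 FPKM in DMSO cells. The dormant libraries were lower without overlap in HCC827 and HCC4006, and the groups overlapped in PC9. RPS6 differed by -0.74 ± 0.36 (adjusted p = 0.184) with 12 libraries and -0.31 ± 0.11 (adjusted p = 0.0577) with 10.

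In HCC4006 and HCC827, some wide differences rested on 1 library. RPL21 differed by 2.84 in HCC4006 through the 3404 FPKM of the second dormant library. RPL13, of the large subunit, had 6504 and 6399 FPKM in dormant HCC827, against 7707 and 1205 FPKM in DMSO HCC827 (difference 1.08). The last value is from the library that stands apart, and its replicate lay above both dormant libraries. In these lines neither was called (limma adjusted p = 0.211 for RPL21 and 0.676 for RPL13).

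Counting the members whose dormant libraries did not overlap the DMSO libraries uses no model. In PC9, 43 of 82 members were lower in this way and 9 higher, where 27.0% of all genes were lower and 35.5% higher. In HCC827, 42 were lower and 5 higher, with 19.4% and 40.0% of all genes. In HCC4006, 58 were lower and 3 higher, with 15.8% and 30.4% of all genes. In all 3 lines 24 members were lower, 13 of the 50 large and 11 of the 32 small subunit genes, against 4.43% of all genes. The 24 hold the 5 called genes, RPSA, and RPL26L1, a copy of RPL26. Of the members, only RPS28 was higher without overlap in all 3 lines, against 9.12% of all genes. The row of its pseudogene RPS28P7 was lower in dormant HCC827, at 3076 and 3443 FPKM against 4089 and 3581 FPKM in DMSO HCC827. In PC9 and HCC827 together 30 members were lower, against 10.8% of all genes. Without both libraries that stand apart, a count added after seeing the data, 57 were lower and 15 higher in HCC827, with 34.1% and 49.6% of all genes, and 63 were lower and 6 higher in HCC4006, with 21.2% and 55.7%. In all 3 lines 31 were then lower, against 9.48% of all genes.

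Single lines gave 0 called members with 12 libraries. Among all genes 0.891% were called lower and 1.82% higher in PC9, 1.44% and 3.06% in HCC827, and 1.18% and 4.88% in HCC4006. At an unadjusted p under 0.05 (limma), 2 members were lower and 0 higher in PC9, below the 4.80% and 7.34% of all genes. In HCC827 6 were lower and 0 higher, where 5.42% and 13.0% of all genes were, so the lower count is near its background. In HCC4006 28 were lower and 1 higher, where 7.91% and 21.8% of all genes were. In simulated data of this size, 1% to 2% of genes changed by 1 log2 unit were called in a single line, and 27% in the mean over lines. The simulation changed fewer genes than were called here and had no differences between lines, so these percentages need not hold for these data. The F test between lines called 0 members, against 1.48% of all genes.

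With the 10 libraries, PC9, whose 4 libraries are all kept, had 18 members lower and 1 higher, where 8.65% of all genes were called lower and 13.1% higher. Fitted alone, PC9 had 11 lower and 1 higher, a fit for which the share of all genes called is not given. RPS27, the small subunit protein that binds zinc, was the one that rose in PC9. It had 2713 and 3605 FPKM in dormant PC9, against 1527 and 1465 FPKM in DMSO PC9 (difference 1.06, limma adjusted p = 0.0039). HCC827 had 4 members lower, RPL27, RPL39L, RPS10 and RPSA, and 2 higher, RPL22L1 and RPS27L, where 6.57% and 11.1% of all genes were called. HCC4006 had 9 lower and 1 higher, where 3.72% and 14.9% of all genes were called. With 12 libraries RPL39L was called in none of the 3 lines (limma adjusted p = 0.124 in PC9, 0.0959 in HCC827 and 0.0888 in HCC4006). With the 10, HCC827 DMSO and dormant HCC4006 have a lone library each. There RPL39L differed by -1.69 in PC9, -1.35 in HCC827 and -0.98 in HCC4006. The F test of a difference between lines called RPS2 alone of the members (adjusted p = 0.0324), where 8.92% of all genes were called; RPS2 differed by -1.88 in PC9, -0.27 in HCC827 and -0.71 in HCC4006.

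By mean FPKM the close copies lay below their parent genes. RPS27L, a copy of RPS27 known as a target of p53, had 488.6 and 1712 FPKM in dormant HCC4006, against 107.8 and 181.5 FPKM in DMSO HCC4006. In PC9 RPS27L had 39.5 and 42.6 FPKM in dormant cells, against 29.1 and 23.4 FPKM in DMSO cells. In HCC827 it had 59.4 and 67.0 FPKM in dormant cells, against 23.8 and 74.4 FPKM in DMSO cells, so those groups overlapped. Its mean difference was 1.30 ± 0.41 (limma adjusted p = 0.0576) with 12 libraries and 1.27 ± 0.18 (adjusted p = 0.000623) with 10. RPS27 differed by 0.29 ± 0.31 (adjusted p = 0.555) with 12 libraries and 0.36 ± 0.12 (adjusted p = 0.0409) with 10.

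RPL22 and RPL22L1 are a pair in which, in mouse cells, RPL22 represses its copy. RPL22L1 had 79.8 and 83.8 FPKM in dormant HCC827, against 41.2 and 167.5 FPKM in DMSO HCC827, where the 167.5 is from the library that stands apart. It had 26.0 and 28.0 FPKM in dormant PC9, against 24.8 and 20.9 FPKM in DMSO PC9. In HCC4006 RPL22L1 had 53.2 and 156.7 FPKM in dormant cells, against 42.8 and 49.8 FPKM in DMSO cells. The groups overlapped in HCC827 alone of the 3 lines. The mean difference of RPL22L1 was 0.39 ± 0.40 (limma adjusted p = 0.528) with 12 libraries and 0.47 ± 0.13 (adjusted p = 0.0203) with 10. The parent RPL22 had a difference of -0.86 ± 0.33 (adjusted p = 0.103) with 12 libraries and -0.56 ± 0.12 (adjusted p = 0.00656) with 10. It had 144.4 and 159.1 FPKM in dormant PC9, against 273.5 and 251.5 FPKM in DMSO PC9.

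RPL26L1 had a mean of 80.8 FPKM and differed by -0.76 ± 0.27 (limma adjusted p = 0.0815) with 12 libraries and -0.56 ± 0.14 (adjusted p = 0.0112) with 10. RPL7L1, at a mean of 20.7 FPKM, differed by -0.30 ± 0.24 (adjusted p = 0.410) with 12 libraries and -0.24 (adjusted p = 0.192) with 10. RPL3L, known from heart and skeletal muscle, and RPL10L, known from the testis, had means of 0.07 and 0.48 FPKM and were not tested.

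RPS28 and RPL7 are examples of members whose levels differed more between lines than between treatments. RPS28, a small protein of the small subunit, had 844.2 and 1074 FPKM in dormant PC9, against 821.9 and 787.8 FPKM in DMSO PC9. In HCC827 RPS28 had 69.1 and 67.6 FPKM in dormant cells, against 57.4 and 63.3 FPKM in DMSO cells. In HCC4006 RPS28 had 17.4 and 18.0 FPKM in dormant cells, against 11.5 and 14.3 FPKM in DMSO cells. In the RPS28 row the order PC9, HCC827, HCC4006 held with no overlap, and the DMSO mean of PC9 was 62.5 times that of HCC4006. The row of its pseudogene RPS28P7, given further on, was above RPS28 in every library and had another line order. How reads were divided between these rows is not known. The order and the ratio are therefore those of the row and need not be those of RPS28 mRNA. The mean dormant minus DMSO difference of the RPS28 row was 0.29 ± 0.24 (limma adjusted p = 0.443) with 12 libraries and 0.30 with 10.

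RPL7 gave the opposite picture for HCC827. It had 16198 and 19450 FPKM in dormant HCC827, against 21066 and 45266 FPKM in DMSO HCC827. In PC9 RPL7 had 673.9 and 652.9 FPKM in dormant cells, against 854.7 and 748.1 FPKM in DMSO cells. In HCC4006 it had 1257 and 2279 FPKM in dormant cells, against 1234 and 1796 FPKM in DMSO cells. Every HCC827 library was above every library of the other lines, and the DMSO mean was 41.4 times that of PC9. The HCC827 DMSO means given here include the library that stands apart, which held the 45266 FPKM. Over the 82 members the DMSO mean was highest in HCC827 for 56, in PC9 for 16 and in HCC4006 for 10. The median ratio between the highest and the lowest line was 2.66. Members with all 4 libraries above those of the other lines numbered 18 in HCC827, 2 in PC9 and 1 in HCC4006, where 3.08%, 4.56% and 6.31% of all genes stood above in this way. These line differences are levels and were not tested.

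Processed pseudogenes of these genes are common in the human genome. The table lists 956 pseudogene rows for 75 of the members, and their summed FPKM was 3.29% to 5.32% of the members' own sum in a library. Of the 319 rows that passed the filter, 22, or 6.90%, were lower in the mean over lines and 0 higher, with a median difference of -0.29; all genes gave 4.55% lower and 10.9% higher. Where a pseudogene is nearly identical to its parent, a read cannot be placed with certainty, so the values of such members are uncertain. For RPS28, the row RPS28P7 exceeded the gene itself. It had 3076 and 3443 FPKM in dormant HCC827, against 4089 and 3581 FPKM in DMSO HCC827. In PC9 RPS28P7 had 1583 and 2055 FPKM in dormant cells, against 1537 and 1394 FPKM in DMSO cells. In HCC4006 it had 546.0 and 103.2 FPKM in dormant cells, against 933.6 and 489.4 FPKM in DMSO cells. The line order of RPS28P7 was therefore not that of RPS28.

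RPL21 was also below its pseudogenes. The row RPL21P16 had 365.1 and 378.0 FPKM in dormant PC9, against 673.2 and 619.7 FPKM in DMSO PC9. RPL21 itself had 21.3 and 15.4 FPKM in dormant PC9, against 32.4 and 31.1 FPKM in DMSO PC9. Only in the second HCC4006 dormant library did RPL21, at 3404 FPKM, exceed the 1938 FPKM summed over its 56 pseudogene rows. For RPL7, by contrast, the pseudogene rows followed the gene at a lower level, with 1145 and 1266 FPKM in dormant HCC827, against 1600 and 3168 FPKM in DMSO HCC827, and with 37.4 to 52.0 FPKM in the 4 PC9 libraries.

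For RPS4X the pseudogene rows differed by line more than the gene did. RPS4XP22 had 265.1 and 315.4 FPKM in dormant HCC827, against 251.7 and 378.5 FPKM in DMSO HCC827. It was at 0.09 and 0.28 FPKM in dormant PC9, against 0.05 and 0.07 FPKM in DMSO PC9. RPS4X had 1100 and 1318 FPKM in dormant PC9, against 1154 and 1065 FPKM in DMSO PC9.

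**Figure D5:**
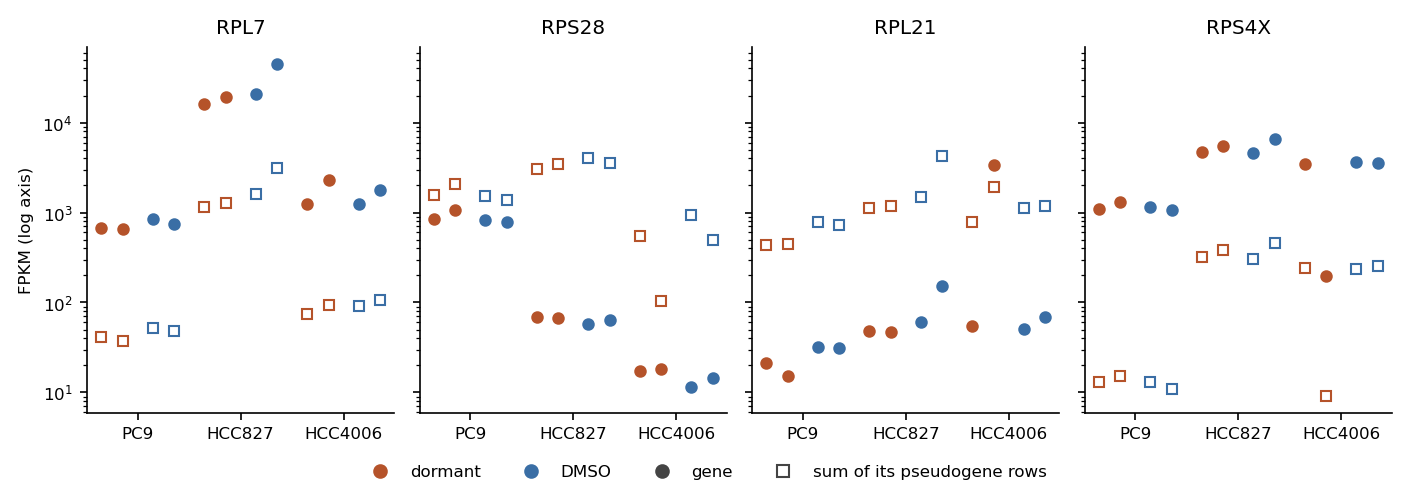
FPKM on a log axis of 4 members (filled circles) and of the sum of their pseudogene rows (open squares) in each library, dormant left of DMSO within each line. RPS28 and RPL21 lie below their pseudogene rows in most libraries, and RPL7 and RPS4X lie above theirs.

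Other genes of the translation apparatus were read against the same background of 4.55% lower and 10.9% higher with 12 libraries, and of 12.8% and 30.0% with 10. FAU, which encodes a small subunit protein under another symbol, differed by -0.80 ± 0.35 (limma adjusted p = 0.145) with 12 libraries and by -0.46 (adjusted p = 0.0203) with 10. Of 76 mitochondrial ribosomal proteins, 5 fell and 0 rose, with a median of -0.63; with 10 libraries 32 fell and 2 rose. MRPS17 differed by -1.27, MRPS23 by -1.04 and MRPL20 by -1.02; they were called in 5, 3 and 3 of the 12 fits that left out a library. The list's median is close to the -0.66 of the cytosolic ribosomal proteins.

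Of 29 initiation factors, 2 fell and 1 rose, and with 10 libraries 11 fell and 3 rose. EIF2S1, the alpha subunit of the factor that delivers the initiator tRNA, had 75.4 and 51.0 FPKM in dormant PC9, against 205.3 and 164.7 FPKM in DMSO PC9. In HCC827 EIF2S1 had 127.8 and 123.8 FPKM in dormant cells, against 498.1 and 950.9 FPKM in DMSO cells. In HCC4006 EIF2S1 had 156.8 and 41.7 FPKM in dormant cells, against 258.6 and 405.5 FPKM in DMSO cells. The groups did not overlap in any line, and the mean difference was -1.99 ± 0.38 (limma adjusted p = 0.00786), called in all 12 fits that left out a library. EIF4E, the cap-binding protein, fell by 1.13 ± 0.33 (adjusted p = 0.0471), and was called in 3 of the 12 fits that left out a library.

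EIF4A2, an RNA helicase, was the initiation factor that rose. It had 237.9 and 190.7 FPKM in dormant PC9, against 46.9 and 35.8 FPKM in DMSO PC9. In HCC827 EIF4A2 had 223.7 and 232.3 FPKM in dormant cells, against 59.7 and 112.0 FPKM in DMSO cells. In HCC4006 EIF4A2 had 405.2 and 189.5 FPKM in dormant cells, against 90.1 and 147.2 FPKM in DMSO cells. Dormant libraries were the higher in each line. The mean difference was 1.69 ± 0.32 (limma adjusted p = 0.0075), called in all 12 fits that left out a library.

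Of 8 elongation factors, 0 were called in either direction with 12 libraries (limma; 3 lower and 0 higher at an unadjusted p under 0.05), and with 10 libraries 3 fell and 2 rose. EEF1A1, which carries aminoacyl-tRNA to the ribosome and has a TOP mRNA, had 14172 and 17898 FPKM in dormant PC9, against 7092 and 7491 FPKM in DMSO PC9. In HCC827 EEF1A1 had 6972 and 8986 FPKM in dormant cells, against 7372 and 4813 FPKM in DMSO cells. In HCC4006 it had 8956 and 3683 FPKM in dormant cells, against 7117 and 6238 FPKM in DMSO cells. The groups overlapped in HCC827 and HCC4006, where the differences were 0.41 and -0.21. Its mean difference was 0.44 ± 0.30 (adjusted p = 0.337) with 12 libraries and 0.55 (adjusted p = 0.00552) with 10. Of 18 other genes with TOP mRNAs, a list that shares EEF1A1 and other elongation factors with the previous one, 2 fell and 0 rose, and with 10 libraries 7 fell and 5 rose. NPM1, a nucleolar chaperone of ribosome assembly, differed by -1.47 ± 0.26 (adjusted p = 0.00572), called in each of the 12 fits without a library. HNRNPA1, an RNA-binding protein, differed by -0.95 ± 0.25 (adjusted p = 0.0328), called in 4 of them.

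Of 12 regulators of TOP mRNAs, among them LARP1, MTOR and EIF4EBP1, 0 were called with 12 libraries (limma; 1 lower and 2 higher at an unadjusted p under 0.05), and with 10 libraries 1 fell and 4 rose. LARP1 itself differed by 0.07 ± 0.27 (adjusted p = 0.876). Of 7 chaperones of single ribosomal proteins, 1 fell, BCCIP, which in yeast has a counterpart that escorts Rpl23; its difference was -1.21 ± 0.32 (adjusted p = 0.031), called in 4 of the 12 fits.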

How the data were processed

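Bulk RNA was sequenced from stranded mRNA libraries made from 500 ng of total RNA, per the labels' protocols. The authors deposited a table of FPKM values, rounded to 0.01, with 24 value columns, 2 for each of the 12 libraries. Both columns of a library, whose meaning the sources used here do not give, were averaged; they differed by a median of 0.0083 log2 units over the members and by at most 0.459. The submitters' processing notes list the builds GRCh37 and hg19 and the tools Cufflinks 2.2.1, STAR 2.5.1b and DESeq2 1.10.1, with no role or order; how reads shared between copies were assigned, and whether strand was used, is not given. FPKM summed to between 793883 and 1159352 per library; sequencing depth is unknown.

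From the deposited FPKM, log2(FPKM + 1) was analysed in R 4.3.3 by limma 3.58.1 (lmFit, eBayes with trend; 1 coefficient per group, 6 residual and 3.8 prior degrees of freedom) for the 14699 genes that reached 1 FPKM in 2 or more libraries; differences understate changes of low genes. Contrasts were dormant minus DMSO per line, the mean of the 3 lines and an F test between lines, all two-sided, with Benjamini-Hochberg adjustment over all 14699 genes and calls at 0.05. Standard errors (SE) pool the spread of all groups. Of the members, RPL3L and RPL10L did not pass the filter.

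The members and the gene lists were chosen with earlier results of these data known. Members named are those called, the 5 with the highest and lowest mean difference and mean FPKM, the 3 most extreme per line, the close copies with their parents, and RPS6, RPL5, RPL11, RPSA, RPLP0, RPLP1 and RPLP2; per list, the 3 lowest and 3 highest called genes. Some that met this rule are given only within counts, and a few are not reported here. RPS28, RPS10, RPS4X, FAU, EEF1A1, LARP1, MTOR, EIF4EBP1 and the pseudogene rows were named after their values were seen, as were the members with opposite signs between lines. GNB2L1, RPTOR and AATF are not analysed here. GC content is that of GENCODE v29 protein-coding transcripts. Same-numbered replicates were not taken as pairs (see the closing section). The fit was tested on simulated data with 1 and 2 log2 unit changes. Alternatives were another pseudocount, filter, scaling, column, a replicate block, each library left out, both libraries that stand apart left out, and each line alone. Tables were handled with numpy 2.4.6 and pandas 2.3.3 in Python 3.11.15 and plotted with matplotlib 3.10.9.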

Additional observations from a re-analysis of the deposited data

Results flagged for a closer look

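In 5 members the dormant libraries lay above both DMSO libraries in one line and below both in another, where 13.3% of all genes tested did so; the difference between lines was not called for any of them (limma F test, adjusted p between 0.473 and 0.562). RPL29 was higher in dormant HCC827, by 0.95 log2 units, and lower in dormant PC9 and HCC4006, with differences of -0.34 and -2.91. RPS29 was higher in dormant PC9 by 0.60 and lower in dormant HCC827, at -0.79. RPL13A was higher in dormant PC9 by 0.57 and lower in dormant HCC4006, at -1.92. RPL10A was higher in dormant HCC827 by 0.40 and lower in dormant HCC4006, at -1.71. RPS12 was higher in dormant PC9 by 0.28 and lower in dormant HCC827, at -0.72. Each of these 5 contrasts involves a line with a library that stands apart. Without those 2 libraries the differences of RPL29 were 0.28 in HCC827, -0.34 in PC9 and -0.37 in HCC4006. Those of RPS29 were 0.60 in PC9 and -0.23 in HCC827, of RPL13A 0.57 in PC9 and -0.17 in HCC4006, of RPL10A 0.29 in HCC827 and -0.19 in HCC4006, and of RPS12 0.28 in PC9 and -0.58 in HCC827. Their signs were the same as with 12 libraries.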

How the results depend on the processing

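The count of 5 members called in the mean over lines was 2 with no filter, 9 with median of ratios scaling, 3 with a replicate block (2 lower and 1 higher) and 39 without both libraries that stand apart. For PC9, where 0 were called, quantile normalization, median of ratios scaling and a filter of 5 FPKM each gave 1, and the count was 12 with each line fitted alone and 19 without both libraries. For HCC827, also 0, quantile normalization and median of ratios scaling gave 1 each and leaving out both libraries gave 6. For HCC4006, also 0, it was 1 with a filter of 5 FPKM, 1 with equal column sums, 1 with the replicate block and 10 without both. The test between lines called 1 without both. Leaving out each library in turn gave 1 to 62 calls in the mean, 0 to 4 in PC9, 0 to 8 in HCC827, 0 to 61 in HCC4006 and 0 to 44 between lines. The count in the mean was 62 without the first HCC4006 dormant library, 22 without the second, 13 without the first HCC827 DMSO library, 3 without the second, and 1 without any of the other 8; the cause was not tested. The HCC4006 share ratio was -0.11 with quantile normalization, -0.63 without the 5 most abundant members, and -0.58 to -0.20 with each library left out; that of HCC827 lay between -0.50 and -0.16 and that of PC9 between -0.23 and 0.04. The large to small ratio in HCC4006 was 0.21 without both libraries, 0.20 without the 5 most abundant members, 0.26 as a difference of medians, and 0.21 to 1.07 with each library left out; that in HCC827 was 0.44 as a difference of medians. Both alternatives to the sums were chosen after seeing the data. For most of these settings the share of all genes called is not given, and where it is given above it also varied. The counts of called members under these settings are therefore not a result about the members alone.

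Among the members chosen for naming by rule, differences that were not called changed sign as follows: RPL3 to -0.25 and RPS27 to -0.018 with median of ratios scaling; RPL5 to 0.018, RPL7 to 0.12 and RPS29 to 0.24 with quantile normalization; and RPL10 to 0.13, RPL21 to -0.42 and RPL39 to -0.020 without both libraries, which changed the sign of 10 of the 82 members tested, called or not. With each library left out, RPL3 lay between -0.42 and 0.54, RPL5 between -0.66 and 0.10, RPL10 between -1.69 and 0.15, RPL13 between -0.98 and 0.26, RPL21 between -0.64 and 1.34, RPL29 between -1.62 and 0.078, RPL39 between -0.27 and 0.93, and RPS29 between -0.35 and 0.025. Of the other values of single genes, 699 kept their direction and side of the threshold, 46 passed it and 116 no longer did. Replicate numbers were not taken to pair the libraries: the differences between replicates of the dormant and DMSO group correlated at 0.09 in PC9, 0.04 in HCC827 and 0.17 in HCC4006.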
